A study of Mus musculus with 13 samples.

Results

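Immediate early genes are transcribed within minutes of a stimulus or a stress, and heat shock genes are induced when proteins misfold. The genes described here are 33 such genes, taken by name from the 23211 gene IDs of the count matrix. They are the AP-1 genes Fos, Fosb, Jun, Junb and Jund, the zinc-finger factors Egr1, Egr2, Egr3, Klf2, Klf4 and Klf6, the nuclear receptors Nr4a1, Nr4a2 and Nr4a3, the factors Atf3, Maff and Csrnp1, the kinases Sik1, Plk2 and Plk3, the response genes Ier2, Ier3, Ier5, Btg2, Gadd45b, Dusp1 and Zfp36, and the heat shock genes Hspa1a, Hspa1b, Hspa8, Hsp90aa1, Dnajb1 and Hsph1. All 33 had 1 row each in the matrix, and 31 passed the filter on low counts. Egr3 and Nr4a3 did not pass, and their counts are given without a test.

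The study sequenced polyA RNA of mouse cells sorted from tissue around tibia implants, and set fibrous tissue against bone. The sort took lineage-negative cells with the leptin receptor (Lepr) at the surface, a receptor of stromal cells of the marrow. Bone libraries (6) came from implants labelled Pressfit and fibrous libraries (7) from implants labelled PMMA, and the labels give no other treatment, time or genotype. Strain, age, sex and any pooling of animals were not given in the labels. Library names fall into 2 series: L002 holds bone 1 to 4 and fibrous 1 to 5, and XY9274 holds bone 5 and 6 and fibrous 6 and 7. In L002 the names of bone 3, bone 4 and fibrous 5 hold Lin, that of fibrous 1 holds no such word, and the others hold plus. The XY9274 names hold Pos. What plus and Lin mean is not stated in the labels. Numbers follow accession order, so they only name libraries. Whether each library had its own animal is not stated, so a p-value covers only the variation among these libraries, part of which may be technical.

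Immediate early genes need no new protein for their induction. Kinase cascades act on factors already in the nucleus, mainly serum response factor (SRF), which binds the CArG box, and CREB, which binds the cyclic AMP response element TGACGTCA or its core TGACG. FOS and JUN proteins then pair into AP-1, while DUSP1, a phosphatase of MAP kinases, and ZFP36, which speeds the decay of AU-rich messenger RNAs, limit the response. Heat shock factor 1 drives the inducible HSP70 genes Hspa1a and Hspa1b, whereas Hspa8 encodes the HSP70 of unstressed cells. In sorted tissue cells these genes are also known to respond to dissociation by enzymes and to sorting.

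Total counts ran from 16162321 to 29600792 in L002 and from 30286397 to 44302166 in XY9274, and genes with a count from 14644 to 17410 and from 17166 to 20146. Levels are normalised CPM, that is CPM on a library total scaled by edgeR's TMM factor. Lepr, the sorted receptor, was under 5 normalised CPM in 5 libraries, bone 3, 4 and 5 and fibrous 1 and 5, and reached 804 in fibrous 2. Of the endothelial list, Cdh5 was at 0 in 10 libraries and at most 0.602, whereas Pecam1, which leukocytes also express, was at 43.1 in bone 5, 34.1 in fibrous 6 and 12.03 in fibrous 7, against 0.0918 in bone 6 and at most 9.28 in L002. The list's sum (6 of 7 markers in the matrix) ran from 5.45 to 36.9 in L002 and from 27.7 to 62.9 in XY9274, where Vwf, which megakaryocytes also express, was 58.9 in bone 6. In bulk RNA, fewer cells of a type and less RNA per cell cannot be told apart.

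The promoters of the 2 genes that stood out most by size or by test, Plk2 and Nr4a1, and the CArG box of Zfp36 are shown because these 3 genes were higher in XY9274 below and carry elements of the CREB and SRF routes. Sequences are RefSeq promoters of GRCm38.p6, 250 bases before to 50 after the start, of which the part before the start is printed 5′ to 3′ on the gene's strand. Capitals mark the motif. The Plk2 stretch lies at chr13:110394794-110395043 on the plus strand, with TGACGTCA 62 bases before the start:
Plk2: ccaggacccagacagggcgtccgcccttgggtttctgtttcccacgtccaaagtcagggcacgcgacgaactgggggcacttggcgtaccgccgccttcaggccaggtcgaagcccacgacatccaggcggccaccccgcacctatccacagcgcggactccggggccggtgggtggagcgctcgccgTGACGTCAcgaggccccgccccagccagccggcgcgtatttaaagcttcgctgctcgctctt
The Nr4a1 stretch lies at chr15:101266596-101266845 on the plus strand, with CGTCA, the reverse complement of TGACG, at 233, 213, 69 and 40 bases before the start of that RefSeq model, which lies inside the GENCODE gene:
Nr4a1: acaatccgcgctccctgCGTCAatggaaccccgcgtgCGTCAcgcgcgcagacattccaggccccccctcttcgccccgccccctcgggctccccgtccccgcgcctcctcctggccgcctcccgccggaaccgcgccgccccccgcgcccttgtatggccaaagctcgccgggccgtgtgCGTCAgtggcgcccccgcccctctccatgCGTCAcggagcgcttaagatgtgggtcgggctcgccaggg
The Zfp36 stretch lies at chr7:28379267-28379296 on the minus strand, with the CArG box 58 bases before the start of that RefSeq model, inside an exon of the GENCODE model:
Zfp36: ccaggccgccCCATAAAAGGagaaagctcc

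Of the 33 genes, 27 matched a promoter entry, with 38 promoters among the 32851 of the table. Both strands were searched over the 300 bases. A member counted if any of its promoters matched, whereas the percentages are shares of single promoters, so the units differ. TGACGTCA stood in promoters of 4 members, Btg2, Dusp1, Maff and Plk2, and in 1.79% of all promoters. Its core TGACG, which lies within TGACGTCA, stood in promoters of 17 members and in 20.8% of all. A CArG box stood in promoters of Egr2 and Zfp36 and in 1.63% of all. The AP-1 element TGANTCA stood in that of Csrnp1 (7.81% of all) and the heat shock element GAANNTTCNNGAA in that of Hsph1 (0.603% of all). These are matches of letters in 1 window and no sign of binding. No match says only that the letters are not in the window.

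Among the AP-1 genes, Fos was abundant in every library and Fosb was near 0 in most. Fos (chr12:85473890-85477273, mm10) ran from 231 to 915 normalised CPM in L002, with a median of 468, and stood at 1176 in bone 5, 280 in bone 6, 1082 in fibrous 6 and 1405 in fibrous 7. Bone 5 and the 2 fibrous XY9274 libraries were above every L002 library for Fos, and bone 6 lay near the bottom of the L002 range. Fosb, a FOS paralogue, ran from 0.129 to 8.49 in L002 (median 2.35), and stood at 138 in bone 5, 3.43 in bone 6, 69.8 in fibrous 6 and 115 in fibrous 7. The same 3 libraries were high for Fosb, and bone 6 again lay within the L002 range.

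Jun, the main partner of FOS, ran from 39.8 to 257 in L002 (median 104), against 477, 73.0, 678 and 743 in bone 5, bone 6, fibrous 6 and fibrous 7. Junb, which partners FOS and restrains some JUN targets, ran from 53.5 to 499 (median 169), against 1054, 124, 695 and 770 in the same order. Jund, the AP-1 gene of resting cells, ran from 38.8 to 176 (median 67.7), against 196, 64.7, 212 and 170. For Jun and Junb bone 5, fibrous 6 and fibrous 7 were above all 9 L002 libraries. For Jund, fibrous 1 of L002 exceeded fibrous 7. Within L002, bone 1 held the highest Fos, Jun and Junb. Jun shares exon bases with Junos and Junb with Prdx2 on the opposite strand, and whether the counting used strand is not stated.

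**Figure D1:**
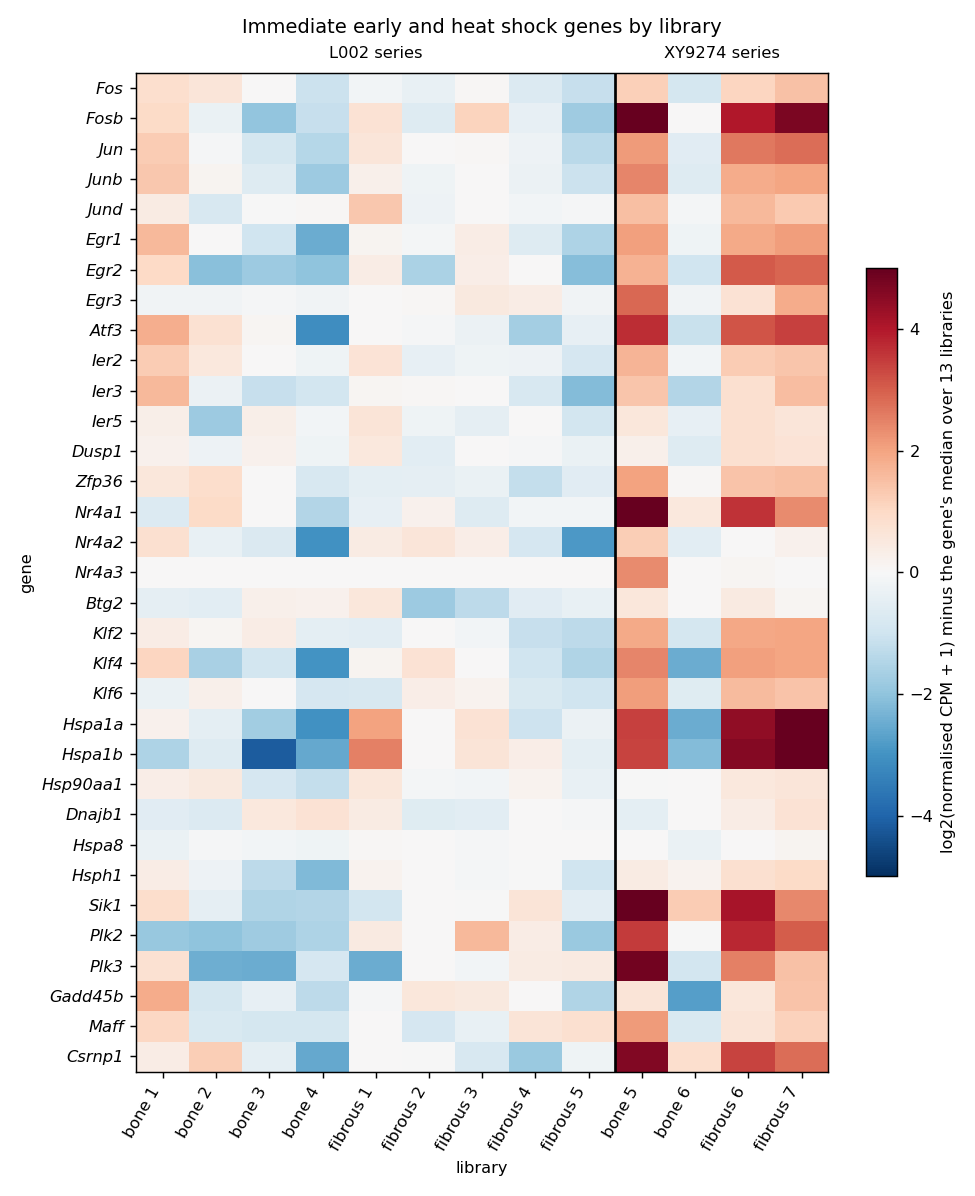
Heat map of the 33 genes (rows) over the 13 libraries (columns, by name series and tissue), coloured by log2(normalised CPM + 1) minus the gene's median, with the colour scale limited at 5 either way. Most rows are high in bone 5, fibrous 6 and fibrous 7, and bone 6 resembles the L002 libraries.

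Egr1, a zinc-finger factor that SRF induces, ran from 22.2 to 398 in L002 (median 118), and stood at 528 in bone 5, 109 in bone 6, 478 in fibrous 6 and 552 in fibrous 7. Egr2, its paralogue, ran from 0 to 7.77 in L002, against 13.6, 1.22, 35.9 and 32.4 in the same XY9274 order. Both had bone 5, fibrous 6 and fibrous 7 above all of L002. Egr3, which did not pass the filter, had 338 counts in bone 5, 160 in fibrous 7, 45 in fibrous 6 and at most 15 elsewhere. Atf3, a stress factor of the ATF family, ran from 0.401 to 41.5 in L002 (median 10.6), against 153 in bone 5, 4.50 in bone 6, 106 in fibrous 6 and 128 in fibrous 7.

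The nuclear receptor Nr4a1 (NUR77, ENSMUSG00000023034, chr15:101254269-101274795) was concentrated in 3 libraries. It ran from 7.52 to 43.9 normalised CPM in L002 (median 20.3). It stood at 1062 in bone 5, 285 in fibrous 6, 119 in fibrous 7 and 32.2 in bone 6. Bone 5 thus exceeded the next library by several times, and bone 6 lay inside the L002 range. Nr4a3 had 196 counts in bone 5, 4 in fibrous 6 and 0 in the other 11 libraries. Nr4a2 did not follow: it ran from 0.100 to 15.0 in L002, against 20.3, 5.23, 8.07 and 9.42 in bone 5, bone 6, fibrous 6 and fibrous 7, so the series overlapped widely.

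Klf2, a factor of quiescent endothelium and lymphocytes, ran from 26.8 to 88.9 in L002 (median 62.3), against 255 in bone 5, 37.0 in bone 6, 263 in fibrous 6 and 271 in fibrous 7. Klf6, an injury-induced factor, ran from 45.5 to 115 (median 73.7), against 395, 61.0, 275 and 253. Klf4, a pluripotency and stress factor, ran from 0.100 to 17.3 (median 3.67), against 47.0, 0.581, 35.2 and 33.8. In all 3 Klf genes the same 3 libraries were above every L002 library, and bone 6 was at or below the L002 median. Maff, a small MAF protein, was at 7.03 in bone 5 and at most 3.08 elsewhere. Csrnp1, a nuclear protein induced by AXIN1, ran from 0.201 to 15.3 in L002 (median 5.05), against 174, 11.6, 73.1 and 47.8.

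The feedback and growth-arrest genes Dusp1, Zfp36, Btg2 and Ier2 spanned 2.71-fold to 9.22-fold over the libraries, against 1068-fold for Fosb. Dusp1 ran from 316 to 658 in L002 (median 430.0) and stood at 538 in bone 5, 290 in bone 6, 786 in fibrous 6 and 731 in fibrous 7. Zfp36 ran from 65.7 to 272 in L002 (median 109), against 605, 155, 405 and 425. Btg2, an antiproliferative gene that p53 induces, ran from 121 to 626, against 629, 425, 573 and 453, and the series overlapped. Ier2 ran from 87.6 to 384 (median 134), against 509, 142, 379 and 411, with bone 1 of L002 just above fibrous 6. Dusp1 shares exon bases with Ergic1 on the opposite strand.

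Ier3, an early response gene of survival signalling, was highest in bone 1 at 116, ahead of fibrous 7 at 109 and bone 5 at 98.0, and lowest in fibrous 5 at 7.33. Ier5, which acts on heat shock factor 1, ran from 13.8 to 79.9 in L002, against 76.1, 37.8, 88.2 and 77.6. Gadd45b, a stress sensor of the p38 route, was highest in bone 1 at 47.2, ahead of fibrous 7 at 35.2, and lowest in bone 6 at 0.979. For Ier3 and Gadd45b the highest library was therefore in L002, and these were the 2 tested members led by bone 1.

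The kinase genes were low in L002 and higher in bone 5, fibrous 6 and fibrous 7. Sik1, a salt-inducible kinase that CREB induces (chr17:31844250-31855804), ran from 0.0644 to 4.57 in L002 (median 1.20), and stood at 100.3 in bone 5, 6.36 in bone 6, 51.5 in fibrous 6 and 14.9 in fibrous 7. All 4 XY9274 libraries were above all 9 L002 libraries for Sik1, the 1 member of 31 with no overlap. Over all 13294 genes tested, 5.05% had every XY9274 library above every L002 library, so 1 of 31 is close to that background. Plk2, a polo-like kinase of the stress response, ran from 0 to 11.6 in L002 (median 0.401), against 44.1, 3.00, 54.0 and 32.2. Plk3, its paralogue, ran from 0 to 8.59 in L002, against 157, 1.96, 30.9 and 14.3, and shares exon bases with Tctex1d4 on the opposite strand.

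**Figure D2:**
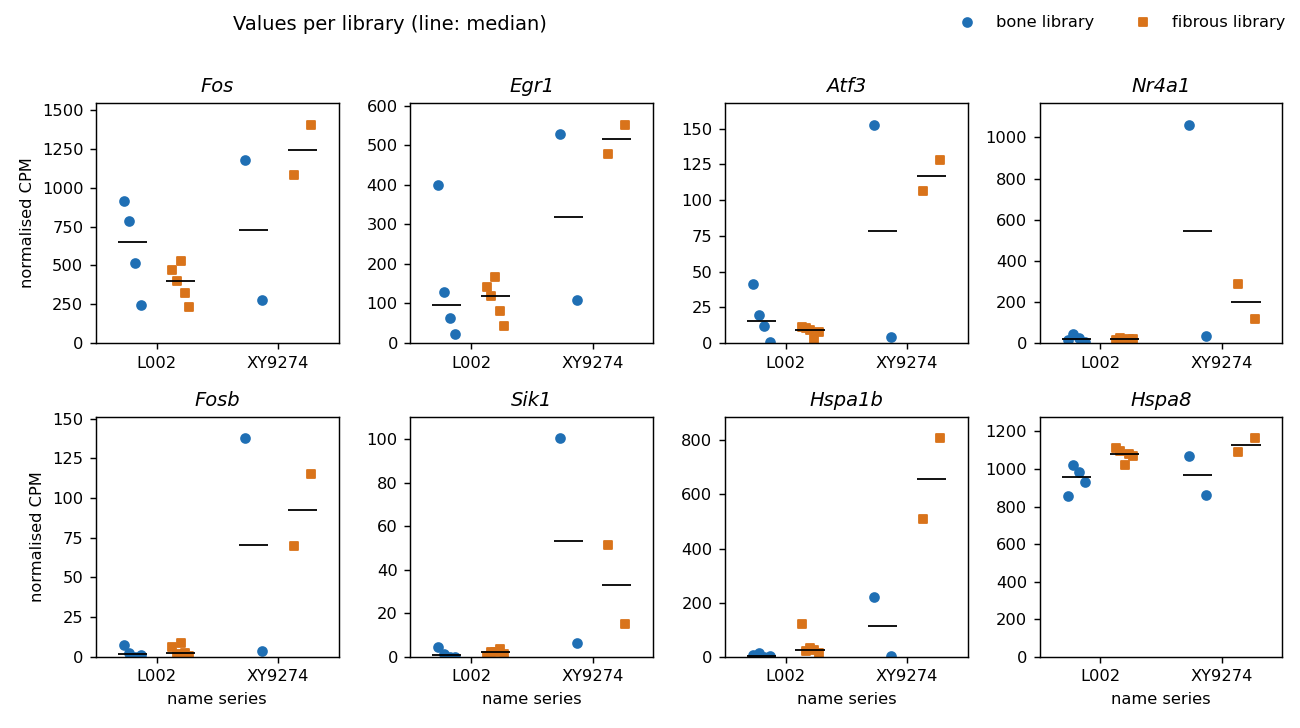
Normalised CPM (linear axes from 0) of Fos, Egr1, Atf3, Nr4a1, Fosb, Sik1, Hspa1b and Hspa8 in each library, grouped by name series and tissue, with a line at each group's median. Bone 5 and both fibrous libraries of XY9274 lie above all of L002 for 7 of the genes. For these genes bone 6 lies within the L002 range, except for Sik1, where it lies just above it. Hspa8 stays between 856 and 1163 throughout.

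The inducible and the constitutive HSP70 genes parted. Hspa1b (ENSMUSG00000090877, chr17:34956436-34959238) ran from 0.193 to 120 normalised CPM in L002 (median 13.9), and stood at 220.2 in bone 5, 3.73 in bone 6, 509 in fibrous 6 and 807 in fibrous 7. Its neighbour Hspa1a (ENSMUSG00000091971, chr17:34969190-34972156) ran from 0 to 31.9 (median 5.66), against 84.3, 0.459, 175 and 285. Both had bone 5, fibrous 6 and fibrous 7 above all of L002. The coding sequences of Hspa1a and Hspa1b are identical at 1918 of 1929 aligned bases (99.4%), so how the authors' counting split reads between them is uncertain and their sum is the safer measure.

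Hspa8, the constitutive HSP70 (chr9:40800984-40810087), ran from 856 in bone 1 to 1163 in fibrous 7, a 1.36-fold span and the smallest of the 31 tested members. Per kb of exon, the sum of Hspa1a and Hspa1b came to 0.239% of Hspa8 in bone 3, 0.431% in bone 4 and 0.743% in bone 6. It came to 2.52% in bone 1, 2.55% in bone 2, and 2.75% to 6.55% in fibrous 2 to 5. It reached 20.6% in fibrous 1, 43.0% in bone 5, 95.0% in fibrous 6 and 142% in fibrous 7. Hence in fibrous 7 the inducible HSP70 transcripts exceeded the constitutive one per length, and in bone 6 of the same name series they were below 1%.

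**Figure D3:**
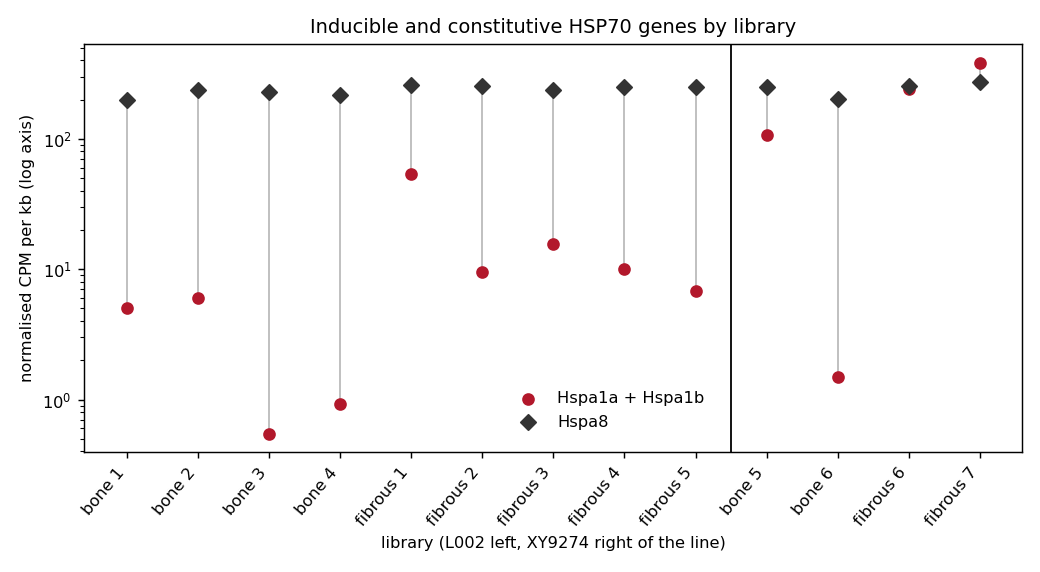
Summed Hspa1a and Hspa1b against Hspa8 in each library, in CPM per kb of exon on a log axis. Hspa8 is nearly level over the 13 libraries while the inducible pair runs from 0.239% to 142% of it.

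The other chaperones spanned less than the inducible pair. Hsp90aa1, the inducible cytosolic HSP90, ran from 150 in bone 4 to 525 in fibrous 7. Dnajb1, an HSP40 that works with HSP70, ran from 207 in bone 2 to 561 in fibrous 7, with 553 in bone 4 and 242 in bone 5, so it did not follow Hspa1b. Hsph1, an HSP110 exchange factor for HSP70, ran from 16.5 to 105 in L002 (median 75.5), against 106, 91.6, 141 and 157 in bone 5, bone 6, fibrous 6 and fibrous 7.

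Per kb of exon, the order of the median level over the 13 libraries began with Hspa8 at 249 CPM per kb, Fos at 219, Btg2 at 155, Dusp1 at 136, Dnajb1 at 105, Ier2 at 104, Hsp90aa1 at 86.5 and Junb at 84.0. It ended with Plk2 at 0.676, Fosb at 0.549, Sik1 at 0.392, Maff at 0.331, Egr3 at 0.0266 and Nr4a3 at 0. Neighbours in this order overlapped over the libraries, since most members spanned more than the steps between them. The highest library exceeded the lowest by 6.09-fold for Fos, 24.9-fold for Egr1, 141-fold for Nr4a1 and 4175-fold for Hspa1b. Low members reach such spans from few counts in the lowest library.

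Different members peaked in different libraries. Of the 31 tested members, 14 were highest of the 13 libraries in bone 5, 10 in fibrous 7, 5 in fibrous 6 and 2 in bone 1. Over all genes tested, bone 5 was the highest for 17.9%, fibrous 7 for 4.16%, fibrous 6 for 4.60% and bone 1 for 9.58%. Bone 4 was the lowest for 11 members, against 15.2% of all genes. Bone 6 stood among the top 3 libraries for none of the 31, against 19.2% of all genes. Inside L002 alone, bone 1 led 15 members and fibrous 1 led 8. Bone 1 combined the highest L002 Fos, Jun, Junb, Egr1, Atf3 and Ier2 with 6.23 normalised CPM of Hspa1b. Fibrous 1 combined the highest L002 Hspa1b, 120, with a Fos of 468, the L002 median.

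Between the name series, with tissue in the model, 8 members were higher in XY9274 than in L002 and none was lower. They were the nuclear receptor Nr4a1, the kinases Sik1 and Plk2, the AP-1 gene Fosb, Csrnp1, Zfp36, Klf6 and the inducible HSP70 gene Hspa1b. The test was edgeR's quasi-likelihood F test with Benjamini-Hochberg adjustment over 13294 genes and a threshold of 0.05. It called 1.89% of all genes higher and 0.271% lower in XY9274, against 25.8% of the tested members higher. All 31 tested members had a log2 fold change above 0, with a median of 1.70, against 52.2% of all genes above 0 and a median of 0.05. At an unadjusted p under 0.05 there were 21 of the 31 members and 2981 of all genes.

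The log2 fold change of Nr4a1 was 4.05 ± 0.66 (standard error, SE) with an edgeR adjusted p of 0.00847, and that of Sik1 was 4.66 ± 0.95 (adjusted p = 0.0285). Csrnp1 gave 3.79 ± 0.78 (0.0285), Fosb 4.61 ± 0.95 (0.0295) and Hspa1b 4.16 ± 0.90 (0.0353). Plk2 had the highest value, 5.51 ± 1.27 (0.0463), on a level near 0 in most L002 libraries, so its value depends on the prior count of the fit. Zfp36 gave 1.61 ± 0.36 (0.0404) and Klf6 1.66 ± 0.39 (0.0497). Zfp36 shares exon bases with Gm44710, and Csrnp1 with 1700019L13Rik, on the opposite strand.

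The remaining AP-1 and Egr genes did not pass the threshold. Jun gave a log2 fold change of 2.12 ± 0.55 (edgeR adjusted p = 0.0668), Junb 1.79 ± 0.53 (0.0964), Jund 1.06 ± 0.35 (0.124) and Fos 1.05 ± 0.43 (0.177). Egr1 gave 1.70 ± 0.61 (0.141), Egr2 2.92 ± 1.31 (0.212), Atf3 3.09 ± 0.86 (0.0791), Klf2 1.84 ± 0.44 (0.0526) and Klf4 2.18 ± 0.97 (0.207). Hspa1a gave 3.92 ± 1.01 (0.0640) and Plk3 3.78 ± 1.47 (0.160). The other chaperones gave 0.94 ± 0.37 for Hsph1, 0.33 ± 0.29 for Hsp90aa1, 0.21 ± 0.32 for Dnajb1 and 0.05 ± 0.15 for Hspa8. Gadd45b gave 0.32 ± 0.81, Dusp1 0.36 ± 0.26 and Nr4a2 0.60 ± 0.96. Btg2 and Ier5 each gave 0.58, Ier2 1.03, Ier3 1.04 and Maff 1.76.

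The 8 calls rested on few libraries. Without bone 5 none passed, and Nr4a1 gave 2.70 ± 0.59 (edgeR adjusted p = 0.0747), Sik1 3.59 (0.208), Hspa1b 3.14 (0.295), Fosb 3.77 (0.253), Plk2 3.59 (0.146), Csrnp1 3.13 (0.228), Zfp36 1.46 (0.205) and Klf6 1.23 (0.312). One member passed without fibrous 6 and 2 without fibrous 7. Over all genes, 287 passed in the main fit, 90 without bone 5, 87 without fibrous 6 and 137 without fibrous 7. Between 3 and 5 members passed when fibrous 1, 2, 3, 4 or 5 or bone 2, 3 or 4 was left out, with 151 to 241 of all genes. Without bone 1 or without bone 6, 12 members passed, with 470 and 237 of all genes. None passed without the 3 libraries with Lin in their name, where Sik1 gave 4.05 (edgeR adjusted p = 0.0542), Csrnp1 3.51 (0.0562), Nr4a1 3.76 (0.0602), Fosb 4.05 (0.0614), Hspa1b 3.67 (0.0903) and Plk2 5.22 (0.141), and all 8 stayed above 0. None passed without the 5 libraries under 5 normalised CPM of Lepr, where Nr4a1 gave 2.43 (0.217), Hspa1b 3.51 (0.261), Plk2 3.76 (0.144) and Klf6 0.83 (0.491). Of all genes, 203 passed without the Lin-named libraries and 32 without those low in Lepr.

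Depth and the markers of several other cell types moved with the name series too. All 9 erythroid markers were in the matrix, and their summed level ran from 30297 to 598713 normalised CPM in L002 and from 2774 to 80510 in XY9274, with bone 6 the highest XY9274 library and bone 5 the lowest of all 13. The 5 pan-leukocyte markers summed to 84.1 to 1210 in L002 and 528 to 4279 in XY9274, the 11 neutrophil markers to 652 to 36645 and 9264 to 92523, the 10 monocyte and macrophage markers to 206 to 4517 and 1031 to 11659, and the 7 B and plasma cell markers to 60.5 to 1716 and 564 to 18058. Bone 5 was the highest library for each of these 4 leukocyte lists. The 4 mast cell and basophil markers summed to 527 in bone 5, 111 in fibrous 6, 155 in fibrous 7 and 1.499 in bone 6, against at most 32.2 in L002. The T and NK cell markers (5 of 6 in the matrix) summed to 276, 46.4, 29.3 and 13.01 in the same order, against at most 23.7 in L002. Nkg7 alone held 268, 40.4, 28.7 and 12.1 of these sums, while Cd3d, Cd3e and Cd3g were each at most 4.44 in any library. These 2 lists were above L002 in the same 3 libraries as most members, with bone 6 inside the L002 range. For the T and NK cell list, fibrous 7 was above L002 by little, and the list mostly reflects 1 gene. The 12 stromal markers summed to 883 to 84099 in L002 and 2695 to 26982 in XY9274. The 7 chondrocyte markers summed to 358 to 39428 in L002 and 332 to 46606 in XY9274. For this list fibrous 7 was the highest library, bone 1 the highest of L002, and bone 6 the lowest of all 13. Bone 5 at 5894 and fibrous 6 at 18631 lay inside the L002 range of the chondrocyte sum. With the erythroid sum as a covariate, chosen after seeing the data, no member passed, and Nr4a1 gave 2.01 (edgeR adjusted p = 0.400), Fosb 1.63 (0.606) and Hspa1b 1.38 (0.771). The median of the 31 members was then 0.57, with 23 above 0, against 1.70 with all 31 above 0 in the main fit. With the pan-leukocyte sum, also chosen after seeing the data, no member passed either, and the median of the 31 members was 2.22, with 30 above 0. Fosb gave 6.65 ± 1.60 (SE; edgeR adjusted p = 0.0813), Sik1 5.15 ± 1.74 (0.162), Hspa1b 4.48 ± 1.59 (0.175) and Plk2 5.59 ± 2.09 (0.188), all above their values without the covariate, with larger SEs. The other called members were below their values without the covariate. Nr4a1 gave 2.57 ± 0.83 (0.151), Csrnp1 3.20 ± 1.16 (0.179), Zfp36 1.46 ± 0.50 (0.163) and Klf6 1.18 ± 0.54 (0.259). The part of depth, of these cells and of the batch that the names may mark was not tested.

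**Figure D4:**
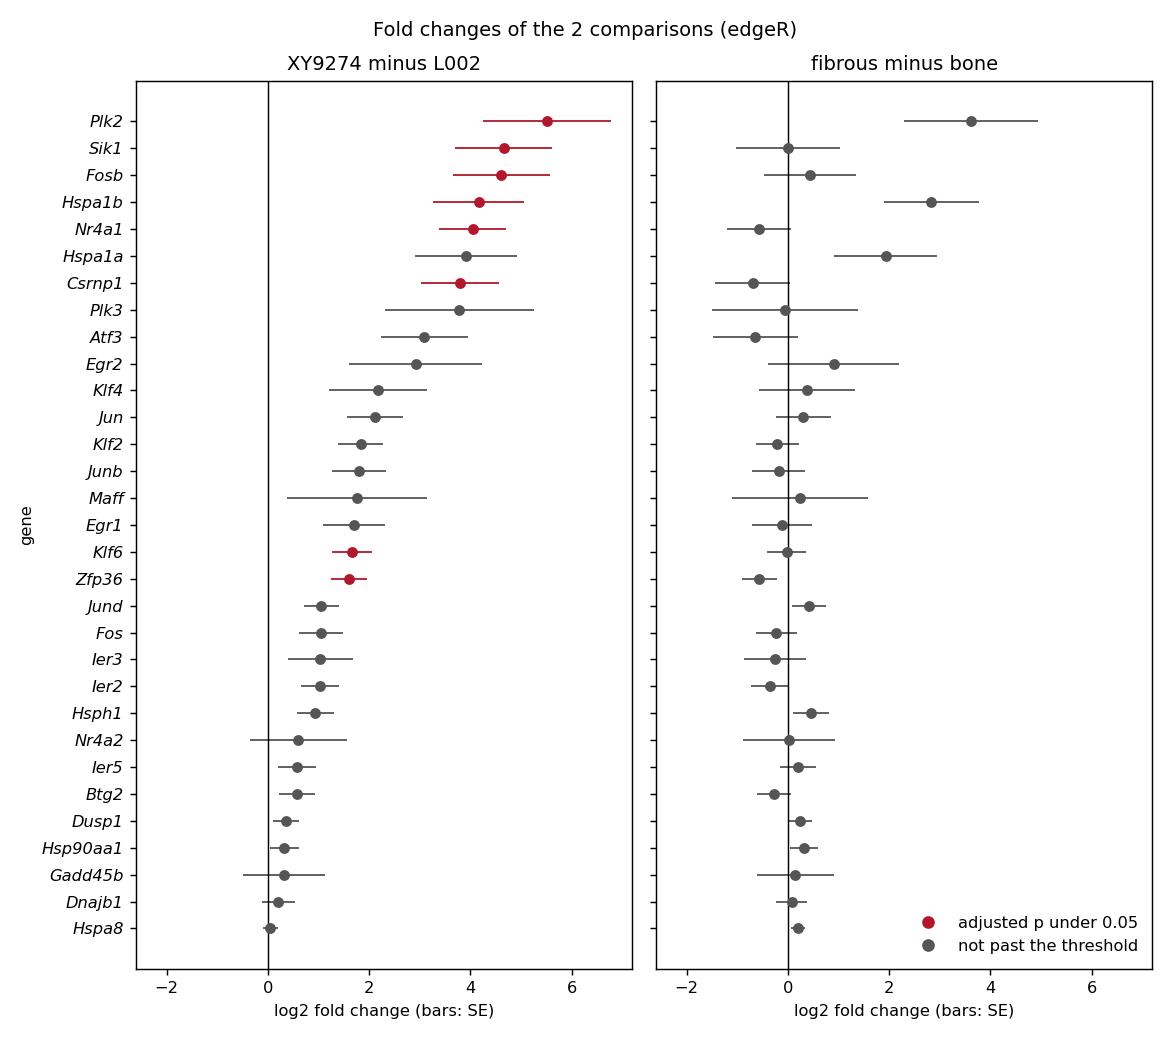
Log2 fold change ± SE of the 31 tested members, for XY9274 minus L002 and for fibrous minus bone, from edgeR. Red points passed an adjusted p of 0.05: 8 in the first comparison, all above 0, and none in the second, whose points lie around 0 except those of Plk2, Hspa1b and Hspa1a.

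Fibrous tissue against bone is the comparison the study names, and no member passed it. Every bone library had the label Pressfit and every fibrous library the label PMMA, so tissue and implant type cannot be told apart. Over all genes edgeR called 0% (0 of 13294), with a smallest adjusted p of 0.873. At an unadjusted p under 0.05 there were 2 of the 31 members, Hspa1b and Plk2, and 636 of all genes. DESeq2 called 1 member, Plk2 (log2 fold change 3.60 ± 0.99, SE, adjusted p = 0.0300), and 169 of all genes, and gave no adjusted p for Hspa1b, while limma-voom called 0 of all genes, with 1151 at an unadjusted p under 0.05. Of the members, 17 of 31 had a value above 0, with a median log2 fold change of 0.07, against 51.9% and 0.03 over all genes.

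The highest fibrous minus bone values were those of Plk2, 3.61 ± 1.32 (SE), Hspa1b, 2.83 ± 0.94, and Hspa1a, 1.93 ± 1.02, each with an edgeR adjusted p of 0.873. Hspa1b averaged 40.9 ± 87.9 normalised CPM in bone (SD, n = 6) and 218 ± 315 in fibrous tissue (SD, n = 7), and the groups overlapped. Hspa1a averaged 16.5 ± 33.3 and 74.3 ± 112, and Plk2 7.95 ± 17.7 and 15.7 ± 20.1. The SD exceeded the mean in each of these groups. The remaining 28 members lay between -0.70 for Csrnp1 and 0.90 for Egr2. Fos averaged 652 ± 371 in bone and 633 ± 438 in fibrous tissue, Egr1 208 ± 205 and 226 ± 202, and Nr4a1 197 ± 424 and 71.6 ± 101. Hspa8 averaged 954 ± 87.4 in bone and 1091 ± 42.5 in fibrous tissue.

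No member had all fibrous libraries above all bone libraries, which held for 0.0527% of all genes. Within L002, edgeR called no member (0.00752% of all genes), and Hspa1b gave 2.96, Plk2 4.91 and Hspa1a 1.70 on the log2 scale. Within XY9274 it called none (0% of all genes), and the same genes gave 2.56, 0.87 and 2.44. A test of whether the tissue difference itself differed between the series called no member and 0% of all genes, with 0 members and 292 genes at an unadjusted p under 0.05. In XY9274 the tissue arms hold 2 libraries each, and bone 5 and bone 6 themselves differed widely for many members, as with 1062 and 32.2 normalised CPM of Nr4a1.

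Bone 2 and bone 4 share a name token, as do fibrous 2 and fibrous 5, with plus in the first name and Lin in the second. The values were set side by side and not tested. In both pairs 7 of the 31 members were over 2-fold higher in the plus library, namely Fosb, Jun, Egr1, Nr4a2, Klf4, Klf6 and Hsph1. Over all genes 18.6% were, so 7 of 31 is close to that background. None was over 2-fold higher in the Lin library in both pairs, against 6.51% of all genes. Of these 7, Nr4a2 had the highest ratio in both pairs, with 5.93 against 0.100 normalised CPM in bone and 12.7 against 0.246 in fibrous tissue. The Lin libraries held 1 and 4 counts of it, so the ratios are uncertain.

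Of 57 other early response genes listed, 51 were tested, and 7 were higher in XY9274 and none lower, with a median log2 fold change of 0.70. Over all genes 1.89% were called higher, with a median of 0.05. Zfp36l1, a paralogue of Zfp36, gave 2.15 ± 0.34 (edgeR adjusted p = 0.00726). It ran from 4.38 to 17.8 normalised CPM in L002, against 42.8, 24.3, 54.9 and 42.9 in bone 5, bone 6, fibrous 6 and fibrous 7, so here bone 6 too was above all of L002. Tnfaip3, a brake on NF-kB that leukocytes also express, gave 4.20 ± 0.88 (0.0302), with 270 in bone 5, 18.3 in bone 6, 253 in fibrous 6 and 226 in fibrous 7 against 0.201 to 28.3 in L002. Trib1, a pseudokinase, gave 2.52 ± 0.45 (0.0145), and Tob2, an antiproliferative gene, 1.19 ± 0.21 (0.0130). In fibrous tissue against bone none of the 51 passed, with a median of 0.18.

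Other heat shock factor and chaperone genes did not pass in either comparison. Of 39 tested, none passed in XY9274 against L002, with a median log2 fold change of -0.13. The smallest edgeR adjusted p was 0.0883 (Bag1, a cochaperone of HSP70, at -0.57). At an unadjusted p under 0.05 there were 12 of the 39, of which 6 were higher in XY9274. Over all 13294 genes there were 2981, of which 1750 were higher. Hspa4, an HSP110-type gene, gave 0.73, Dnajb9, an HSP40 of the endoplasmic reticulum, 1.26 and Cryab, a small heat shock protein, -2.61. In fibrous tissue against bone none of the 39 passed, with values of 0.64 for Hspa4, 1.13 for Hspa4l, 1.60 for Cryab and 2.03 for Hspb1.

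The 1.89% of all genes called higher is also the background of the next counts. Of 17 genes of the unfolded protein response tested, 1 was higher in XY9274, the endoplasmic reticulum chaperone gene Canx (1.05 ± 0.16, edgeR adjusted p = 0.00658), and the median was 0.36. Of 21 upstream kinase, SRF and CREB genes tested, 2 were higher, with a median of 1.07. They were Creb1, which encodes CREB, at 2.15 ± 0.43 (0.0250) and Mapk14, which encodes the p38 alpha kinase, at 1.00 ± 0.22 (0.0346). Ep300, a coactivator of CREB, gave 2.51 (0.0580) and Mapkapk2, a p38 target kinase, 1.57 (0.0680). In fibrous tissue against bone none of either list passed, with medians of 0.12 and 0.03.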

How the data were processed

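The authors deposited 1 matrix of raw counts per gene for the whole series, whole numbers for 23211 mouse gene IDs in 13 libraries, with at least 1 count per gene. Per the submitters' processing notes, edgeR is among the tools, and mm10 and hg38 are listed as builds without saying for what. For the aligner, the counter, the annotation and strand use, the answer is not given in the sources used here. Every ID matched GENCODE M21 (mm10), and no mitochondrial gene was among them.

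Counts were fitted with edgeR 4.0.16 (R 4.3.3; TMM, filterByExpr on tissue, robust quasi-likelihood F test) on tissue plus name series, over 13294 genes, with Benjamini-Hochberg adjustment. Each SE was obtained as the absolute log2 fold change over the root of F. Common biological variation was 0.904 (coefficient of variation between libraries of a group). Alternatives were RLE factors, no filter, DESeq2 1.42.0, limma 3.58.1 (voom with quality weights), 1 term only, and libraries left out. The script was tested on simulated data.

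The 33 members and all lists were chosen with earlier results of these data known. All members are named. Of each other list, up to 4 genes with the smallest p in each comparison could be named.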

Additional observations from a re-analysis of the deposited data

Results flagged for a closer look

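Each member was examined in each tissue, 66 groups of libraries in all, and 20 held a library at 1 end whose gap to its neighbour was too wide a share of the range by Dixon's 95% criterion. A chance rate of about 1 in 20 groups would hold only for normally distributed values of a single population. Here the values are linear CPM and each tissue group mixes the name series, so the number expected by chance is not known. Of the 20 values, 16 are in bone 5. Bone 5 stood far above the other bone libraries for Fosb (138 normalised CPM), Jund (196), Egr3 (7.25), Atf3 (153), Zfp36 (605), Nr4a1 (1062), Nr4a3 (4.20) and Klf2 (255). It did so too for Klf4 (47.0), Klf6 (395), Hspa1a (84.3), Hspa1b (220.2), Sik1 (100.3), Plk2 (44.1), Plk3 (157) and Csrnp1 (174). Among the fibrous libraries, fibrous 7 stood apart for Egr3 (3.01), and fibrous 6 for Nr4a1 (285), Sik1 (51.5) and Nr4a3 (0.0759, from 4 counts). Values of different members in bone 5 share that library, so these values are not independent of each other.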

How the results depend on the processing

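For XY9274 against L002, 8 members and 287 genes passed. Members and genes passing were 6 and 250 with RLE factors, 9 and 424 with no filter, 12 and 1982 with DESeq2, 23 and 2864 with voom, 6 and 254 without the tissue term, 0 and 203 without the Lin-named libraries, and 0 and 32 without the 5 libraries low in Lepr. With covariates chosen after seeing the data they were 0 and 66 (erythroid sum) and 0 and 104 (pan-leukocyte sum). Leaving out 1 library gave 0 to 12 members and 87 to 470 genes. DESeq2 gave no adjusted p for 3 members, Egr2, Hspa1b and Jun. For fibrous tissue against bone, DESeq2 passed 1 member and 169 genes. The median of all genes in XY9274 against L002 was 0.05, and moved to 0.29 with no filter. In fibrous tissue against bone it was 0.03, and 0.17 with voom, where 28 of 31 members lay above 0.

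Signs turned, on the log2 scale, only in members that had not passed. For XY9274 against L002 these were Gadd45b (-0.0798) without the Lin-named libraries, Gadd45b (-0.42), Hspa8 (-0.0416) and Nr4a2 (-0.43) without those low in Lepr, and Hspa8 (-0.0433) with the pan-leukocyte sum. With the erythroid sum they were Egr1 (-0.00865), Gadd45b (-1.69), Hsp90aa1 (-0.0820), Hspa8 (-0.0132), Ier3 (-0.68), Klf4 (-0.66), Maff (-2.12) and Nr4a2 (-1.03). Leaving out 1 library gave -0.0111 to 0.40 for Dnajb1, -0.14 to 0.88 for Gadd45b and -0.00645 to 0.11 for Hspa8.

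For fibrous tissue against bone, Nr4a2 gave -0.0219 with RLE factors and -0.0222 with DESeq2. Voom gave 2.14 for Atf3, 0.60 for Csrnp1, 0.71 for Egr1, 0.18 for Fos, 0.80 for Ier3, 0.59 for Junb, 0.56 for Klf2, 0.40 for Klf6, 0.37 for Nr4a1, 1.53 for Plk3 and 0.72 for Sik1. Without the series term, Atf3 gave 0.0326, Egr1 0.12, Klf2 0.16, Maff -0.16 and Nr4a2 -0.0921. Without the Lin-named libraries, Klf6 gave 0.000592, Maff -0.74 and Nr4a2 -0.32. Without those low in Lepr, Hsp90aa1 gave -0.0663, Klf2 0.33, Klf6 0.67, Nr4a1 0.38, Plk3 1.08 and Sik1 0.56. The erythroid sum gave 0.0334 for Egr1, -0.0482 for Nr4a2, 0.42 for Plk3 and 0.71 for Sik1. The pan-leukocyte sum gave -0.35 for Egr2, -0.68 for Fosb, -0.36 for Gadd45b, -0.12 for Jun, 0.34 for Klf6, 0.45 for Nr4a1 and -0.41 for Nr4a2. Leaving out 1 library gave -0.0743 to 0.24 for Dnajb1, -0.37 to 0.65 for Egr1, -0.20 to 1.11 for Gadd45b, -0.55 to 0.50 for Ier3, -0.0351 to 0.34 for Ier5, -0.43 to 0.35 for Junb, -0.24 to 0.28 for Klf6, -0.14 to 2.81 for Maff, -0.85 to 0.30 for Nr4a1, -0.33 to 0.53 for Nr4a2, -0.53 to 1.17 for Plk3 and -0.35 to 0.98 for Sik1. The cause was not tested. No paired analysis was made for either comparison. Replicate numbers follow accession order, so they give no pairs. Some shared name tokens (bone 2 with 4, fibrous 2 with 5) join libraries of 1 tissue and 1 series. Others cross these groups: bone 1 shares its token with a bone library of the other series. Bone 2 and 4 also share theirs with a fibrous library of the other series. Whether a shared token marks a shared animal is not stated in the labels.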
